A study of Mus musculus with 16 samples.

Results

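The 10 genes described here encode the first steps of insulin signalling in muscle, from the insulin receptor to Akt, with 1 inhibitor of the receptor and 2 effectors that act on translation. They were chosen by symbol (Insr, Irs1, Irs2, Pik3r1, Pik3ca, Akt1, Akt2, Grb10, Eif4ebp1 and Rps6kb1) from the 23970 gene symbols of the expression table, and all 10 were among the 11256 symbols with a mean of at least 0.5 FPKM that were tested. RNA sequencing was done on quadriceps muscle of wild-type male C57BL/6NTac mice aged 16 weeks, in 4 groups of 4 separate mice. The CON-pre and CON-post mice had eaten a control diet with 10% of kcal from fat for 10 weeks, and the HFD-pre and HFD-post mice a high-fat diet with 60% of kcal from fat for the same time. The post groups were fasted for 3 h before a single treadmill run to exhaustion. They were studied 3 h after it and had water but no food in between. The pre groups were not run to exhaustion but, per the methods, shared the treadmill acclimatization and the fasting period. Whether that period covered the 3 h after the run is not stated. The design thus asks how an obesogenic diet, 1 bout of maximal exercise and their combination change muscle gene expression. The values below are transcript levels, and neither the phosphorylation nor the amount of the proteins was measured in these files.

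Insulin binds a receptor tyrosine kinase (Insr), which phosphorylates the docking proteins IRS1 and IRS2. These recruit class I phosphatidylinositol 3-kinase (PI3K), made of a regulatory subunit (p85α, from Pik3r1) and a catalytic subunit (p110α, from Pik3ca), and the lipid it makes brings the kinase Akt to the membrane. In muscle, Akt2 is the form best known for insulin-stimulated glucose uptake and Akt1 for growth. Grb10 is an adaptor that binds the receptor and dampens its signal. Through mTORC1, the same pathway acts on the translation repressor 4E-BP1 (Eif4ebp1) and on the ribosomal S6 kinase (Rps6kb1). Akt also keeps FoxO transcription factors out of the nucleus, and Irs2 is a gene that FoxO factors are known to activate in liver.

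The DNA before the start sites of the 2 docking-protein genes is shown because these genes had exercise values of opposite sign. The sequences are 250 bases each, read 5′ to 3′ on the minus strand from RefSeq GRCm38.p6, and end at the base before the annotated start. Capitals mark the letters CACGTG (an E-box) and TGTTTTG (the reverse complement of CAAAACA, the letters of the insulin response sequence).
Irs1, chr1:82291440-82291689: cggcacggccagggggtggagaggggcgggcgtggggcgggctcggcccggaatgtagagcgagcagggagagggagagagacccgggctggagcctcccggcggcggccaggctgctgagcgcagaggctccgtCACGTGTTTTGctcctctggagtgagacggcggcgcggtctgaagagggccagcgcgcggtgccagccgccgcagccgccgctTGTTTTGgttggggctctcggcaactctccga
Irs2, chr8:11008930-11009179: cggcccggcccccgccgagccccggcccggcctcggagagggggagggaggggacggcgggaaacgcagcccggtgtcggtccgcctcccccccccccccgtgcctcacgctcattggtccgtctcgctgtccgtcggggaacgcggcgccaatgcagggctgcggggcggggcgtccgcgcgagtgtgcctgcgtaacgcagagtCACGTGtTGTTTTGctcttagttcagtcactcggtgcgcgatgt
Both stretches were rich in G and C (72.4% in Irs1 and 72.8% in Irs2, against a median of 52.4% over 32851 promoters). In Irs1 the E-box began 115 bases before the start and ran into a TGTTTTG that began at 111, sharing 2 bases with it, and another TGTTTTG began at 32. In Irs2 the E-box began 44 bases before the start and TGTTTTG began at 37. Of all promoters, 6.02% held CACGTG and 5.56% held CAAAACA on either strand. The 2 kinds of letters occurred together in 97 promoters (0.295%) and began within 10 bases of each other in 7 (0.0213%), a distance that was set after these sequences had been seen. Those 7 belonged to Irs1, Irs2, the related docking-protein gene Irs4, and Klf11, Pcbp1, Pyroxd1 and 1700019P21Rik, which were named after the match was seen. A match is a description of letters, and binding of a factor was not measured.
Of the other 6 members with a promoter entry (Akt1, Akt2, Grb10, Pik3ca, Pik3r1 and Rps6kb1), 1 of the annotated starts of Akt1 held the FoxO letters GTAAACA, which 3.17% of promoters held, and 1 of the annotated starts of Akt2 held TGATGNAA, a CARE sequence, which 3.45% held. The cAMP response letters TGACGTCA, in 1.55% of promoters, were in none of the 8. Eif4ebp1 and Insr had no entry. The shares are per promoter, and a gene with several annotated starts had more chances of a match.

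Expression was compared per length of transcript, as FPKM, in which the fragments of a gene are divided by its length in kilobases and by the number of fragments mapped in the library. By mean FPKM over the 16 libraries, Akt2 (chromosome 7, 27591552 to 27640826) was the highest of the 10 at 35.1, followed by Eif4ebp1 (chromosome 8, 27260327 to 27275656) at 29.0 and Akt1 (chromosome 12, 112653821 to 112674884) at 14.4. Akt2 exceeded Eif4ebp1 in 12 of 16 libraries, and Eif4ebp1 exceeded Akt1 in 16 of 16. Akt2 was also above Akt1 in every library, with a ratio of Akt2 to Akt1 between 2.03 and 2.83. Insr (chromosome 8, 3150922 to 3279649) had a mean of 9.67 FPKM, above the next gene, Pik3r1, in 14 of 16 libraries. Pik3r1 (7.04; chromosome 13, 101680761 to 101768217), Rps6kb1 (6.96; chromosome 11, 86498869 to 86544885), Grb10 (6.75; chromosome 11, 11930499 to 12037428) and Pik3ca (6.35; chromosome 3, 32397065 to 32466112) were close, since each exceeded the next in only 9 or 10 of 16 libraries. The lowest were Irs1 (4.69; chromosome 1, 82233105 to 82291439) and Irs2 (3.46; chromosome 8, 10984681 to 11008929), and Irs1 was above Irs2 in 12 libraries. The 10 genes thus ranged from the 42.6th percentile of mean FPKM among the genes tested (Irs2) to the 90.9th (Akt2).

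Across all 10 genes, exercise went with more Eif4ebp1 and Irs2 mRNA, and the diet moved no member past the threshold. Tests were made with limma on log2(FPKM + 0.5), a scale on which the change of low genes is understated, in a fit of the 4 groups, with Benjamini-Hochberg adjustment over all 11256 genes. With exercise averaged over the diets, 2 of the 10 members passed an adjusted p of 0.05, both higher after exercise, whereas 3.86% of all genes tested passed (2.95% higher and 0.915% lower). An unadjusted p under 0.05 was reached by 6 members and by 18.5% of all genes. The median log2 difference of the members was 0.10, beside 0.01 over all genes.

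**Figure D1:**
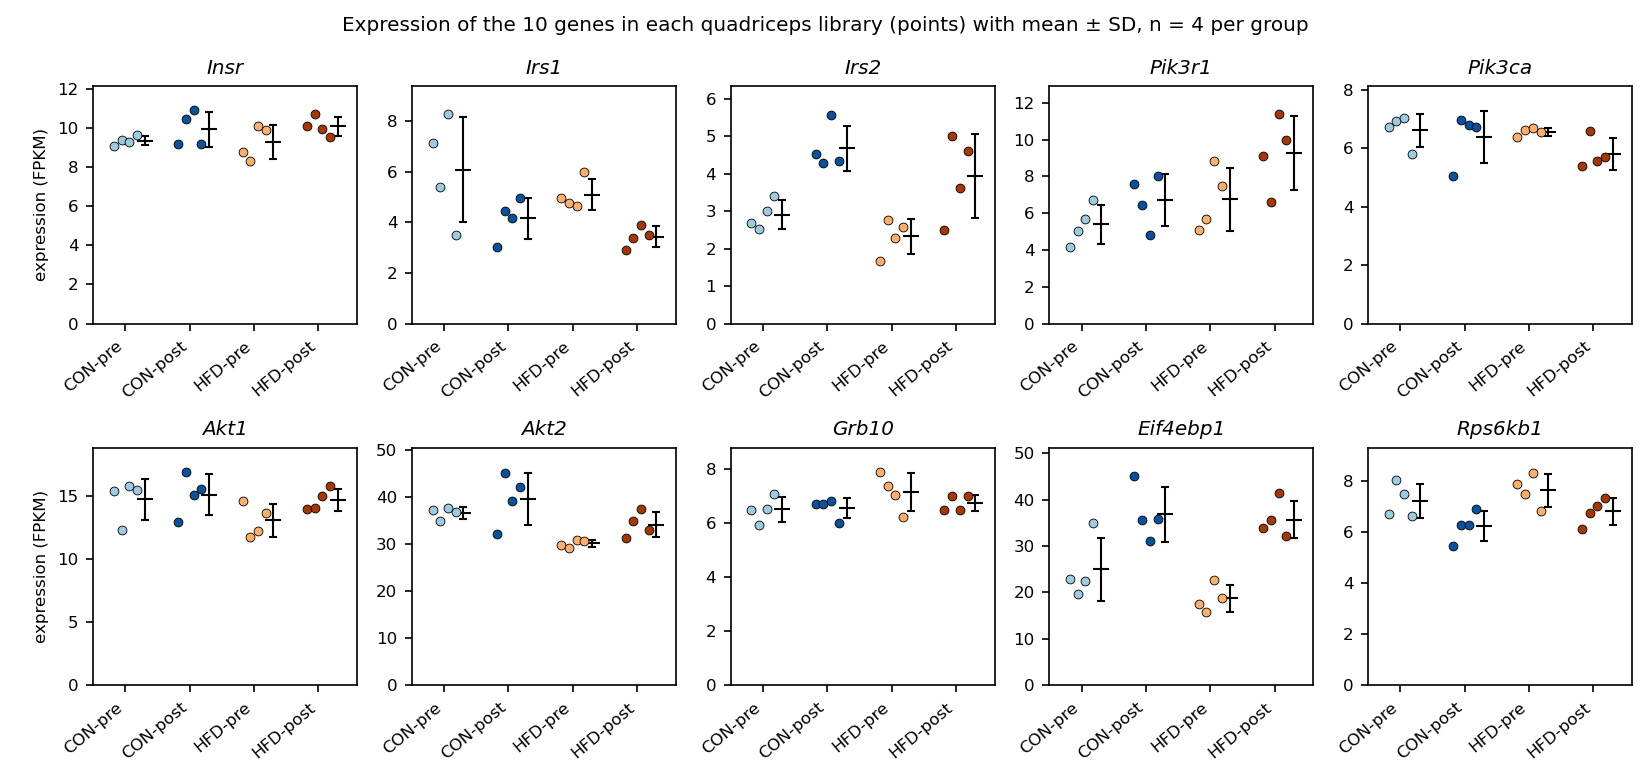
Expression (FPKM, linear axes from 0) of the 10 genes in CON-pre, CON-post, HFD-pre and HFD-post quadriceps. Points are libraries, and the bar beside them is the mean with the SD (n = 4 mice per group). Eif4ebp1 and Irs2 sit higher in most post libraries, while Insr and Grb10 stay between 5.94 and 10.9 FPKM throughout.

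The docking-protein genes were the members with exercise values furthest apart at the start of the pathway. Irs2 read 2.69, 2.52, 2.99 and 3.41 FPKM in CON-pre and 4.51, 4.28, 5.57 and 4.34 in CON-post (replicates 1 to 4). In HFD-pre it read 1.68, 2.77, 2.29 and 2.57, and in HFD-post 2.50, 5.02, 3.61 and 4.61. All 4 CON-post libraries were above all 4 CON-pre libraries, and 7 of the 8 post libraries were above all 8 pre libraries; the exception was HFD-post replicate 1, which lay among the pre values. Averaged over diets, Irs2 rose by a log2 difference of 0.62 (standard error 0.12, limma adjusted p = 0.00815), or 1.53-fold (95% interval 1.28 to 1.83). Within each diet the differences were close, 0.60 in CON (standard error 0.17, adjusted p = 0.120) and 0.63 in HFD (standard error 0.17, adjusted p = 0.140), and neither passed on its own with all libraries fitted. Without HFD-post replicate 1 the Irs2 difference was 0.80 in HFD (adjusted p = 0.0210, in a range of 0.0210 to 0.348 over the alternatives) and its adjusted p in CON was 0.0431, in a range of 0.0431 to 0.310.

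Irs1 ran the other way. It read 7.16, 5.39, 8.27 and 3.51 FPKM in CON-pre and 3.04, 4.44, 4.16 and 4.98 in CON-post. In HFD-pre it read 4.98, 4.76, 4.66 and 5.98, and in HFD-post 2.91, 3.37, 3.92 and 3.51. All HFD-post values were below all HFD-pre values, while in CON the groups overlapped because CON-pre replicate 4, at 3.51, lay below 3 of the 4 CON-post libraries. The average log2 difference was -0.48 (standard error 0.14, limma adjusted p = 0.0599; 95% interval -0.77 to -0.19), which did not pass the threshold with all 16 libraries. It did pass without CON-pre replicate 4 (-0.59, standard error 0.11, adjusted p = 0.00395) and under 3 other scalings of the libraries and array weights, with adjusted p between 0.00395 and 0.130 over the alternatives. The difference was -0.46 in CON (adjusted p = 0.381) and -0.51 in HFD (adjusted p = 0.308).

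The 2 docking-protein mRNAs therefore came to similar levels after exercise. The ratio of Irs2 to Irs1 lay between 0.338 and 0.971 in the 8 pre libraries and between 0.857 and 1.49 in the 8 post libraries. Irs2 exceeded Irs1 in 0 of 8 pre libraries and in 4 of 8 post libraries. The median ratio went from 0.421 in CON-pre to 1.15 in CON-post, and from 0.460 in HFD-pre to 1.12 in HFD-post. The highest ratio before exercise, 0.971, belonged to CON-pre replicate 4. These ratios were chosen with the values in view and are given as a description.

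**Figure D2:**
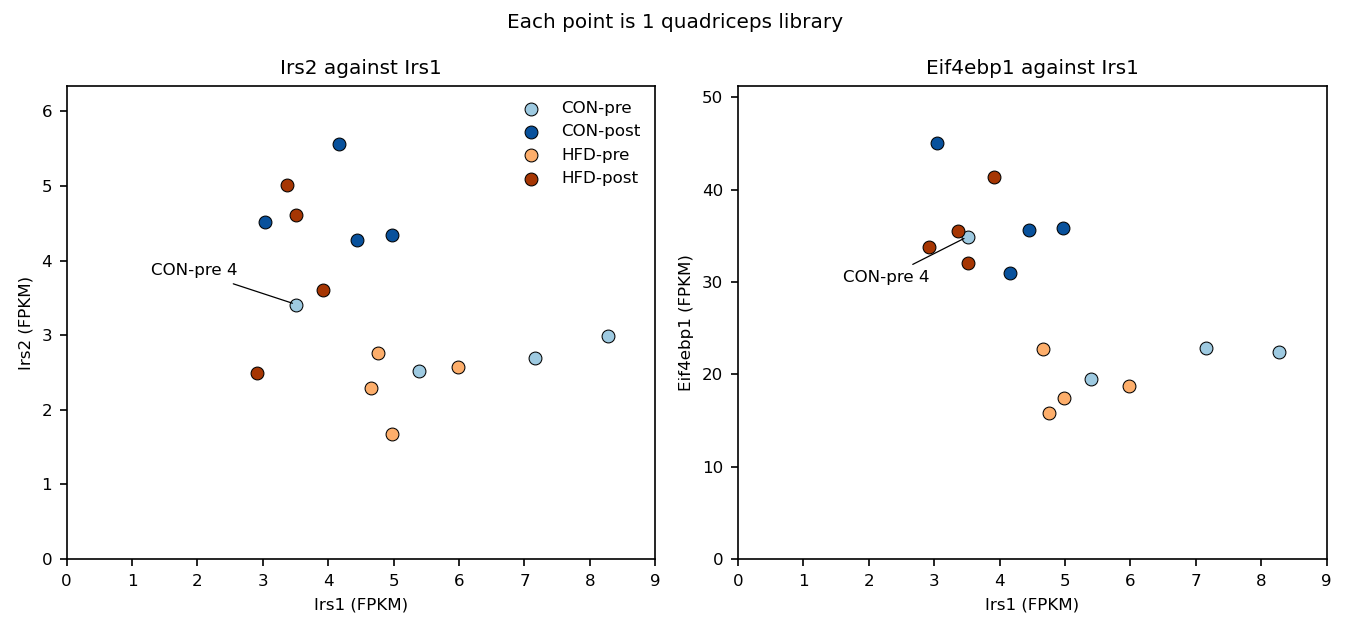
Irs2 (left) and Eif4ebp1 (right) against Irs1, all in FPKM on linear axes from 0, with 1 point per library (n = 4 per group). For Irs1, 5 of 8 pre libraries lie to the right of all post libraries, and for Irs2 7 of 8 post libraries lie above all pre libraries, with HFD-post replicate 1 (2.50 FPKM) as the exception. CON-pre replicate 4, marked in both panels, lies among the post points for Irs1 (3.51 FPKM) and Eif4ebp1 (34.9 FPKM).

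Eif4ebp1, whose product 4E-BP1 holds the cap-binding factor eIF4E until mTORC1 phosphorylates it, had the largest exercise value of the 10. It read 22.9, 19.5, 22.5 and 34.9 FPKM in CON-pre, and 45.1, 35.6, 30.9 and 35.8 in CON-post. In HFD-pre it read 17.5, 15.8, 22.7 and 18.7, and in HFD-post 33.8, 35.5, 41.4 and 32.0. All 4 HFD-post libraries exceeded all 4 HFD-pre libraries, and in CON only CON-pre replicate 4, at 34.9, reached the range of CON-post. Averaged over diets, Eif4ebp1 rose 1.68-fold (95% interval 1.43 to 1.98; log2 difference 0.75, standard error 0.11, limma adjusted p = 0.00087). In the HFD mice it rose 1.89-fold (log2 difference 0.92, 95% interval 0.59 to 1.26, standard error 0.16, adjusted p = 0.0133), and it was the 1 member of 10 that passed there, where 0.542% of all genes passed (0.489% higher and 0.0533% lower). That call was lost without HFD-pre replicate 1 or 2 or HFD-post replicate 2 or 3, with adjusted p between 0.0518 and 0.0598 and a range of 0.00327 to 0.0598 over all alternatives.

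In the CON mice the Eif4ebp1 difference was 0.58 (standard error 0.16, adjusted p = 0.109), and 0 of 10 members passed in limma, beside 1.11% of all genes (0.968% higher and 0.142% lower). Before adjustment, 4 members and 11.1% of all genes had a p under 0.05. Without CON-pre replicate 4, all 8 post libraries (30.9 FPKM or more) were above the 7 remaining pre libraries (22.9 or less). The CON difference was then 0.75 (standard error 0.13, adjusted p = 0.00716), and Irs1 passed as well (-0.68, standard error 0.16, adjusted p = 0.0396), so that 2 members passed beside 1.69% of all genes. CON-pre replicate 4 stood out in these same Eif4ebp1 and Irs1 values, so leaving it out favours their calls, here and averaged over diets. No other pre library reached the post range of Eif4ebp1, so the separation without this library was bound to follow. Over the alternatives the adjusted p in CON was between 0.00716 and 0.308 for Eif4ebp1 and between 0.0396 and 0.707 for Irs1. A larger Eif4ebp1 response in HFD than in CON was not shown, since the difference of the responses was 0.35 (95% interval -0.13 to 0.82, limma unadjusted p = 0.142) and 0.18 without CON-pre replicate 4.

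CON-pre replicate 4 thus bears on the Irs1 and Eif4ebp1 results above that rest on CON-pre. The averaged exercise difference of Irs2 was 0.65 without it (limma adjusted p = 0.007), beside 0.62 with all libraries. This library had the lowest Irs1, Pik3ca and Rps6kb1 and the highest Eif4ebp1, Irs2, Pik3r1, Grb10 and Insr of its group. Over 58 genes that were higher in HFD-post than in HFD-pre in a fit of those 2 groups alone, the median of this library was 0.16 (log2) above the mean of the other CON-pre libraries, and the other 3 libraries, treated the same way, gave -0.15, -0.09 and 0.05. Its depth relative to CON-pre replicate 1, read from low genes, was 1.11. Leaving it out took the members called for exercise averaged over diets from 2 to 3 (Eif4ebp1, Irs2 and Irs1), and the share of all genes called from 3.86% to 5.02%.

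The kinase that phosphorylates ribosomal protein S6 had values of the opposite sign to Eif4ebp1. Rps6kb1 had a mean of 7.21 ± 0.674 FPKM (SD, n = 4) in CON-pre and 6.22 ± 0.593 in CON-post, and of 7.62 ± 0.628 in HFD-pre and 6.80 ± 0.531 in HFD-post. The average exercise difference was -0.18 (standard error 0.06, limma adjusted p = 0.147), and 4 of the 8 post libraries were below all 8 pre libraries. The ratio of Eif4ebp1 to Rps6kb1 was between 2.12 and 5.26 before exercise and between 4.37 and 8.28 after it, and the highest value before exercise was that of CON-pre replicate 4.

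Pik3r1 had values in the same direction for the diet and for exercise. It read 4.15, 5.03, 5.68 and 6.70 FPKM in CON-pre, 5.07, 5.66, 8.82 and 7.50 in HFD-pre, 7.58, 6.44, 4.82 and 8.01 in CON-post, and 9.14, 6.62, 11.4 and 9.98 in HFD-post. The lowest mean was in CON-pre (5.39 ± 1.08, SD, n = 4) and the highest in HFD-post (9.28 ± 2.00), but neighbouring groups overlapped. The average differences were 0.36 for exercise (standard error 0.14, limma adjusted p = 0.172) and 0.36 for the diet (standard error 0.14, adjusted p = 0.323), so neither passed. Pik3ca, which encodes the catalytic partner, had group means between 5.82 and 6.63 FPKM, with an exercise difference of -0.11 (adjusted p = 0.416) and a diet difference of -0.06 (adjusted p = 0.824). Pik3r1 exceeded Pik3ca in 3 of 8 pre and 6 of 8 post libraries, and the median ratio was 0.766 in CON-pre and 1.72 in HFD-post.

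For the diet, Akt2 was the member with the smallest p, and it did not pass the adjustment. It read 37.1, 34.8, 37.5 and 36.8 FPKM in CON-pre and 29.8, 29.1, 30.8 and 30.6 in HFD-pre. After exercise it read 32.1, 45.0, 39.0 and 42.0 in CON-post and 31.2, 34.8, 37.3 and 32.9 in HFD-post. Every HFD-pre library was below every CON-pre library, as was the case in 1 direction or the other for 5.62% of all genes tested, and every HFD-post library was above every HFD-pre library. The HFD minus CON difference averaged over exercise states was -0.24 (standard error 0.06, limma unadjusted p = 0.00122, adjusted p = 0.0875; 95% interval of the fold 0.774 to 0.926). It was -0.28 before exercise (adjusted p = 0.307) and -0.20 after it (adjusted p = 0.738). Without CON-post replicate 1, whose 32.1 FPKM was the lowest of its group, the averaged difference was -0.29 and passed (adjusted p = 0.00602). It also passed, at -0.22 to -0.25, under upper-quartile scaling (limma adjusted p = 0.0271), median-of-ratios scaling (0.0285) and quantile normalization (0.0486) and with array weights (0.0316), and the adjusted p over all alternatives was between 0.00602 and 0.174.
The summed FPKM of 11 muscle-fibre markers also differed without overlap before exercise, at 70551 to 76877 in CON-pre and 61311 to 67005 in HFD-pre, and was 60799 to 71114 in CON-post and 53786 to 65709 in HFD-post. The sum rests mostly on a few abundant genes such as Acta1 and Tnnt3. Of the 11 markers, 9 had a lower mean in HFD-pre than in CON-pre, among them the myosins Myh4 (8123 against 9039 FPKM) and Myh7 (20.7 against 35.9), while Myh1 (592 against 542) and Myh2 (345 against 254) had a higher one, and 0 passed for the diet. The FPKM sum of the whole library also differed without overlap, at 305490 to 327559 in CON-pre and 294867 to 303652 in HFD-pre, but overlapped after exercise (298638 to 329282 in CON-post and 283575 to 314764 in HFD-post). The part of these shifts in the Akt2 difference was not tested. In muscle homogenates, fewer cells of a type and less RNA per cell cannot be told apart.

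With the diet averaged over exercise states, 0 of 10 members passed in limma, beside 0.959% of all genes, and 3 members (Akt2, Pik3r1 and Irs2) and 10.4% of all genes had an unadjusted p under 0.05. The Irs2 difference was -0.27 (standard error 0.12, adjusted p = 0.453) and that of Eif4ebp1 -0.21 (standard error 0.11, adjusted p = 0.544). Irs1 gave -0.21 (standard error 0.14, adjusted p = 0.653). Without CON-pre replicate 4 the difference was -0.13 for Eif4ebp1 and -0.32 for Irs1 (limma unadjusted p = 0.00941, adjusted p = 0.227), and that of Irs2 had an unadjusted p of 0.085, so that the 3 members under 0.05 were Akt2, Pik3r1 and Irs1. For HFD-pre against CON-pre, 0 members passed beside 0.346% of all genes (2 members and 8.25% at an unadjusted p under 0.05), and for HFD-post against CON-post 0 passed beside 0.151% (2 members and 6.29%). The interaction of diet and exercise called 0 members and 0 genes, with 0 members and 3.16% of all genes at an unadjusted p under 0.05. These tests do not show that the diet left the genes at the same level.

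**Figure D3:**
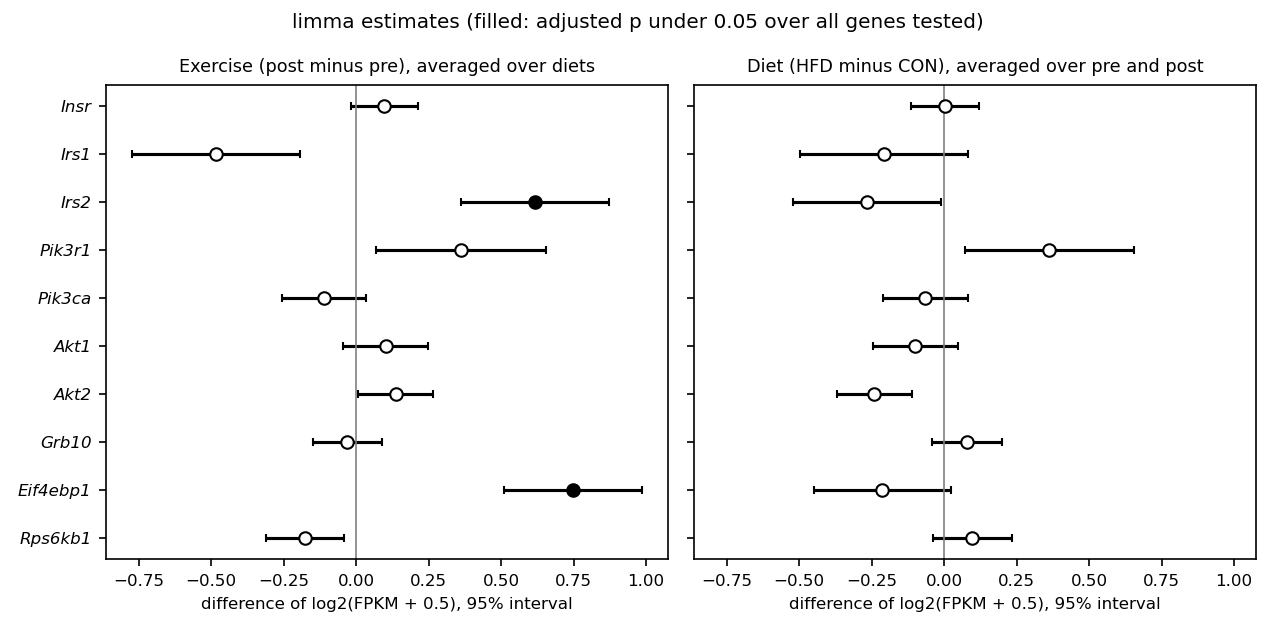
Differences of log2(FPKM + 0.5) with their 95% intervals for the 10 genes, post minus pre averaged over diets (left) and HFD minus CON averaged over exercise states (right), from limma with 16 libraries. Filled points have an adjusted p under 0.05 over all genes tested: Eif4ebp1 (0.75) and Irs2 (0.62) for exercise and 0 genes for the diet.

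The receptor, Akt1 and Grb10 had small values for both exercise and diet. Insr was between 8.33 and 10.9 FPKM in the 16 libraries, with an exercise difference of 0.10 (95% interval -0.02 to 0.21, limma adjusted p = 0.364) and a diet difference of 0.0035 (95% interval -0.11 to 0.12). Grb10 was between 5.94 and 7.91 FPKM, and its differences were -0.03 for exercise (95% interval -0.15 to 0.09) and 0.08 for the diet (95% interval -0.04 to 0.20). For Akt1 the range was 11.8 to 16.9 FPKM, with differences of 0.10 for exercise (95% interval -0.04 to 0.25) and -0.10 for the diet (95% interval -0.25 to 0.05). The exercise value of Akt2 was 0.14 (95% interval 0.01 to 0.27, adjusted p = 0.244).
In HFD mice the post and pre libraries did not overlap for 3 members (Irs1, Akt2 and Eif4ebp1), where 6.81% of all genes did not overlap, and in CON mice for 1 (Irs2), where 5.82% did not. Between HFD-post and CON-post all 10 members overlapped (3.16% of all genes did not).

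The other genes of the pathway were taken from 6 lists with 104 genes, of which 96 were tested. With exercise averaged over diets, 16 of the 96 rose and 2 fell in limma, beside 2.95% and 0.915% of all genes. Without CON-pre replicate 4 the counts were 19 and 2, in a fit that called 5.02% of all genes. In the CON mice 8 rose and 2 fell, and in the HFD mice 1 rose and 0 fell (backgrounds as above). Without that library 11 rose and 1 fell in CON, where 1.69% of all genes were called. The difference between the 2 responses passed in 0 of the 96. At an unadjusted limma p under 0.05 there were 5, beside 3.16% of all genes.

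Of 12 receptor and adaptor genes tested, 0 passed, beside 3.86% of all genes, and their median log2 difference was -0.02. At an unadjusted limma p under 0.05 there were 2, beside 18.5% of all genes. Of 12 genes for other PI3K subunits, PDK1 and mTORC2, 1 fell: Pik3cd, the catalytic subunit p110δ best known in leukocytes. It was 2.99 to 3.77 FPKM in CON-pre, 1.40 to 2.87 in CON-post, 1.95 to 2.76 in HFD-pre and 1.84 to 2.04 in HFD-post (average log2 difference -0.45, standard error 0.10, adjusted p = 0.0203). The summed macrophage markers overlapped between the 4 groups (15.7 to 44.5 FPKM over all libraries), and their part in the Pik3cd value was not tested.

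Among 25 genes listed as inhibitors, 3 rose and 1 fell. Trib1, a pseudokinase related to the Akt inhibitor Trib3, rose 1.75-fold (log2 0.80, standard error 0.11, limma adjusted p = 0.000407), from group means of 2.77 and 2.80 FPKM in CON-pre and HFD-pre to 6.31 and 4.42 in CON-post and HFD-post. Sesn1, a stress-induced brake on mTORC1 (0.40, adjusted p = 0.0399), and Ppp2ca, the catalytic subunit of the phosphatase PP2A (0.21, adjusted p = 0.00815), rose less. The Sesn1 call was lost in 16 alternative fits and kept in 10 (limma adjusted p between 0.0149 and 0.0879), and that of Ppp2ca was lost in 2. Ddit4l (REDD2), an inhibitor of mTORC1 in muscle, fell to 0.593 of its level (log2 -0.75, standard error 0.11, adjusted p = 0.000784), from group means of 68.7 and 55.4 FPKM before exercise in CON and HFD to 36.9 and 36.5 after it.

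Downstream of Akt, 4 of 18 substrates and glucose-disposal genes rose and 0 fell. Hk2, the hexokinase that traps glucose in muscle, rose, with 49.4 to 57.8 FPKM in CON-pre and 87.5 to 127 in CON-post, and with 45.8 to 50.1 in HFD-pre and 89.0 to 125 in HFD-post. The groups did not overlap in either diet, and the log2 difference was 1.05 in CON (adjusted p = 7.4e-05) and 1.15 in HFD (adjusted p = 8.37e-05). Tbc1d1, a Rab regulator of glucose transporter traffic (0.52, standard error 0.13, limma adjusted p = 0.0315), Foxo3 (0.48, standard error 0.09, adjusted p = 0.00895) and Foxo1 (0.70, standard error 0.19, adjusted p = 0.0487) rose on average. However, Foxo1 did not pass in 19 of 26 alternative fits (adjusted p between 0.0011 and 0.101), and Tbc1d1 did not in 9 (limma adjusted p between 0.0156 and 0.0694). Of 16 mTORC1 and translation genes, 2 rose and 0 fell: Lpin1, an mTORC1-controlled phosphatidate phosphatase (0.37, standard error 0.06, adjusted p = 0.00141), and Eif4a1, the helicase that works with eIF4E (0.35, standard error 0.09, adjusted p = 0.0478), the latter again not in 19 of 26 alternative fits.

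The list with the highest share was that of genes known to be induced by FoxO factors, where 7 of 13 rose and 0 fell, with a median log2 difference of 0.39 beside 0.01 over all genes. Without CON-pre replicate 4 the count was 8 and the median 0.47, in a fit that called 5.02% of all genes. The list was drawn up with earlier results of these data known, so its share is a description. The activity of FoxO factors was not measured. Within the diets, 4 of 13 rose in CON, where 0.968% of all genes rose, and 0 of 13 passed in HFD, where 0.489% rose. Leaving out CON-pre replicate 4 gave 5 of 13 in CON, in a fit that called 1.69% of all genes. At an unadjusted limma p under 0.05 there were 8 of 13 in CON, beside 11.1% of all genes, and 6 of 13 in HFD, beside 11.7%. Trim63 (MuRF1) and Fbxo32 (atrogin-1), the muscle ubiquitin ligases, rose by 1.12 (standard error 0.16, limma adjusted p = 0.00059) and 0.56 (standard error 0.13, adjusted p = 0.0202). Pdk4, the kinase that shuts pyruvate dehydrogenase, rose by 0.91 on average (standard error 0.15, adjusted p = 0.002). Its values were 146 to 288 FPKM in CON-pre and 469 to 555 in CON-post, without overlap, and 240 to 386 in HFD-pre and 292 to 531 in HFD-post, with overlap. Cited2 (0.60), Cdkn1a (0.56), Bnip3 (0.42) and Gadd45a (0.34) also rose, with adjusted p between 0.00984 and 0.0335, though Bnip3 and Gadd45a did not pass in 14 and 15 of 26 alternative fits. Cited2, a transcriptional coregulator, averaged 11.2 FPKM in CON-pre and 23.4 in CON-post, and 13.9 in HFD-pre and 15.4 in HFD-post. Gadd45a, a stress-induced growth-arrest gene, averaged 12.8 and 19.0 FPKM before and after exercise in CON, and 11.7 and 13.1 in HFD. In the test of the difference between the 2 diets' exercise responses, 0 of the 13 genes passed, and 3 had an unadjusted p under 0.05, beside 3.16% of all genes. These were Cited2 (HFD minus CON response -0.87, standard error 0.24, unadjusted p = 0.00239), Pdk4 (-0.94, standard error 0.30, unadjusted p = 0.0062) and Gadd45a (-0.37, standard error 0.17, unadjusted p = 0.0485), each with a limma adjusted p near 1 that stayed at or above 0.728 in all 26 alternative fits. Catalase (Cat), from the same list, was the 1 pathway gene of 96 called for the diet (0.959% of all genes), at 38.3 to 39.5 FPKM in CON-pre and 49.5 to 68.4 in HFD-pre (diet average 0.50, standard error 0.08, adjusted p = 0.00267).

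**Figure D4:**
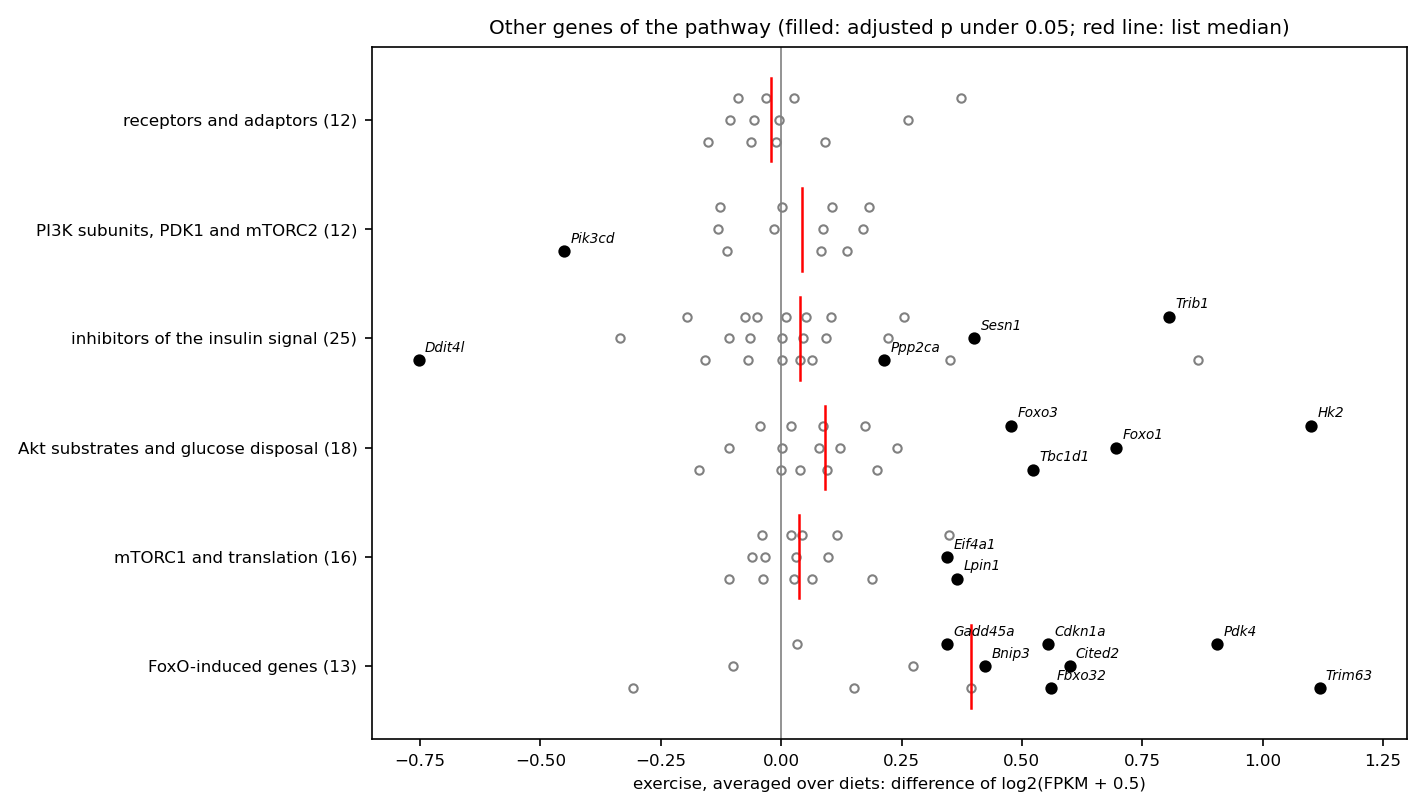
Exercise differences, post minus pre averaged over diets, in log2(FPKM + 0.5) for the 96 tested genes of 6 pathway lists (number of genes in brackets). Each point is a gene, filled and named where the adjusted p was under 0.05, and the red line is the list's median, which is 0.39 for the FoxO-induced genes and between -0.02 and 0.09 for the other lists.

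Across the 16 libraries, the genes whose log2 expression ran most like the 2 called members were, for Irs2, Pdxk (Pearson r = 0.906), Wdr62 (0.905) and Edn1 (0.896). For Eif4ebp1 they included Lama5 (0.940) and Galnt15 (0.921). After the group means had been removed, r was between 0.671 and 0.758 for these 5 genes, so part of the likeness was between mice of a group. The points share the libraries and their scaling, and the genes were picked as the highest of 11256, so these values are a description.

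The muscle-fibre markers took 53786 to 76877 FPKM per library, out of a library total of 283575 to 329282. Summed adipocyte (325 to 665 FPKM), endothelial (49.9 to 72.1), blood (259 to 903), fibroblast (316 to 481), Schwann cell (27.7 to 44.8) and satellite cell (4.98 to 7.20) markers were present in every library and overlapped between pre and post in both diets. Single markers passed for exercise (Des and Pecam1, both higher after it) and for the diet (Lep higher and Cfd lower in HFD). The part of these cells in the members' values was not tested.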

How the data were processed

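Quadriceps RNA of 16 mice in 4 groups of 4 was analysed from the table the authors deposited. Per the labels and the methods, they made stranded poly(A) libraries, checked the reads with FastQC, aligned them with TopHat and used Cufflinks for expression. The deposited unit is FPKM, which the authors had scaled by transcript length and mapped fragments, so no count test was used. The table carries no read counts, and the methods give only a rough sequencing depth. From genes at or below 0.5 FPKM, the libraries' relative depth was 0.702 to 1.13 of that of CON-pre replicate 1. The table held 24487 entries: 27 named as dates were dropped (0.0771% of the summed FPKM) and 260 symbols in several entries were summed, none of them a member, which left 23970 symbols. 0 columns of sample values were left unused. The methods name mm9, but positions are from RefSeq GRCm38.p6, since the loci the study lists overlapped the genes of that build.

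The 11256 symbols averaging 0.5 FPKM or more entered limma 3.58.1 (R 4.3.3) as log2(FPKM + 0.5), with trend and no covariates. Called means a Benjamini-Hochberg adjusted p under 0.05 over all genes tested. The 7 contrasts were the 4 pairwise ones, exercise averaged over diets, diet averaged over exercise states, and their interaction. P-values measure the spread between mice. Python 3.11.15 made tables and figures with pandas 2.3.3, scipy 1.17.1 and matplotlib 3.10.9, and the fit was tested on simulated data. The alternatives were 11 other settings (pseudocounts of 0.1 and 1, filters at 0 and at 1 FPKM, scaling by quantiles, by upper quartiles or by median ratios, only the groups compared, no trend, array weights, a replicate block) and 16 fits without 1 library.

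The members, lists and tests were chosen with earlier results of these data known. Named were all 10 members, the pathway genes called in any contrast, and for each called member the 3 genes with the highest Pearson correlation. A few genes that these rules would have listed or named are not reported here and were left out of the list counts. List counts without CON-pre replicate 4 and the distance between motifs were added with the data already in view. Promoters were read from RefSeq for 8 of 10 members, and each motif was searched on both strands.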

Additional observations from a re-analysis of the deposited data

Results flagged for a closer look

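In the 40 group checks of the 10 genes (10 genes in 4 groups of 4 libraries), 3 libraries lay far from the other 3 of their group, with a gap to the nearest library over Dixon's critical share of the group's range; chance gives about 1 in 20. Pik3ca in CON-post replicate 1 was 5.05 FPKM, beside 6.72 to 6.98 in the others. Akt1 in CON-pre replicate 2, the library with the lowest relative depth (0.702), was 12.3 FPKM, beside 15.4 to 15.9. Grb10 in CON-post replicate 4 was 6.02 FPKM, beside 6.72 to 6.83. No result above for these 3 genes passed the test with or without any single library.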

How the results depend on the processing

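Under 10 other settings and the 16 fits without 1 library (the fit of only the groups compared gives no averaged contrast), the 2 members called for exercise averaged over diets, Eif4ebp1 and Irs2, passed in every fit, with adjusted p between 6.94e-05 and 0.00296 and between 0.000814 and 0.0219, respectively. With the diet averaged, 1 member (Akt2) was called under quantile, upper-quartile and median-of-ratios scaling and with array weights. In the fits without 1 library, the members called ranged from 0 to 2 for CON-post against CON-pre, from 0 to 2 for HFD-post against HFD-pre and from 0 to 1 for the diet averaged. The diet difference of Insr (0.0035) changed sign in 6 fits without 1 library, which ranged from -0.017 to 0.027. The cause was not tested. Of 1059 values for single members, 4 lost and 14 gained a call, and of 896 for pathway genes 153 lost one. The scalings moved the median of all genes by less than 0.1. With the replicate number as a block, 2 members were called for exercise averaged over diets, 1 for HFD-post against HFD-pre and 0 in each other contrast. The mice differ between groups, and libraries with the same number did not deviate together (r from -0.220 to 0.213), so the numbers were not taken as pairs. Without counts, the precision of low genes such as Irs2 is not known from the table.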
